A study of Mus musculus with 28 samples.

Results

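The 9 genes followed here, called the members, mark microglia or encode complement C1q: the chemokine receptor gene Cx3cr1, the purinergic receptor gene P2ry12, the transmembrane protein gene Tmem119, the growth factor receptor gene Csf1r, the complement genes C1qa, C1qb and C1qc, the lipid-sensing receptor gene Trem2 and the protease gene Ctss. They were chosen as a listed set of microglial genes and matched by Ensembl identifier to the 48709 genes of the count files. All 9 were found, and all 9 were among the 17009 genes that passed a filter on low counts and were tested. The study measured polyadenylated RNA from the dissected CA1 field of the mouse hippocampus. There were 10 wildtype libraries from littermates given vehicle, 9 libraries from CamkIIδC transgenic mice given vehicle, and 9 from CamkIIδC transgenic mice given Vorinostat, an inhibitor of histone deacetylases. Vehicle or drug was given in drinking water from 2 months of age for 4 weeks, so that all mice were 3 months old, and both sexes were used. As background, CamkIIδC is a calcium and calmodulin dependent kinase isoform, and such mice are known as a heart failure model in which the heart muscle makes the kinase. Which promoter drives the transgene is not given in the sources used here. Drug-treated wildtype mice were not analysed here, so every drug comparison is on the transgenic background.

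Microglia are the resident macrophages of the brain. They depend on signals through the CSF1 receptor for survival, sense neuronal fractalkine through CX3CR1 and released nucleotides through P2Y12, and are the main source of C1q in brain tissue. C1q is built from A, B and C chains, which are encoded by separate genes; it opens the classical complement pathway and is known in the hippocampus as a tag on synapses that microglia then engulf. TREM2 signals through the adaptor TYROBP, and cathepsin S, the product of Ctss, is a lysosomal cysteine protease active in antigen processing.

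On the GRCm38 assembly, also called mm10, the C1q genes stood side by side on the minus strand of chromosome 4, with C1qb at 136880129 to 136886187, C1qc at 136889804 to 136893065 and C1qa at 136895917 to 136898803. Cx3cr1 lay on chromosome 9 (119901616 to 120069879, minus strand) and P2ry12 on chromosome 3 (59216272 to 59262871, minus strand). Tmem119 lay on chromosome 5 (113793729 to 113800516, minus strand), Trem2 on chromosome 17 (48346401 to 48354147, plus strand) and Ctss on chromosome 3 (95526786 to 95556403, plus strand). All are protein-coding genes. Exons of P2ry12 share 9 bases with Med12l and exons of Csf1r share 873 bases (15.1% of its exonic length) with Hmgxb3, each on the opposite strand. The library kit does not mark strand, so reads from those stretches could not be assigned to a gene by strand; the other 7 members share no exonic base with another counted gene.

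RefSeq promoter windows of 300 bases (250 before the transcription start to 50 after it, GRCm38.p6) were matched by symbol for 6 of the 9 members: C1qb, C1qc, Ctss, Cx3cr1, P2ry12 and Trem2. The letters GAGGAA, the core of the element that the myeloid factor PU.1 is known to bind, were searched on both strands. They occurred in 28.3% of all 32851 promoter windows and in 4 of the 6 member windows (C1qb, C1qc, Ctss and Trem2). The longer form GAGGAAGT occurred in 3.202% of all windows and in 2 of the 6 member windows. A match is a description of the letters and not of a bound site. The windows of C1qb and C1qc are shown because the C1q chains varied together among the libraries (C1qa had no entry), and that of P2ry12 because it followed the other members least over the 24 libraries of low mitochondrial share described below. Each is written 5′ to 3′ on the strand of its gene, with the searched letters (GAGGAA, or TTCCTC where the match is on the other strand) in capitals.
C1qb, chr4:136886151-136886450, minus strand: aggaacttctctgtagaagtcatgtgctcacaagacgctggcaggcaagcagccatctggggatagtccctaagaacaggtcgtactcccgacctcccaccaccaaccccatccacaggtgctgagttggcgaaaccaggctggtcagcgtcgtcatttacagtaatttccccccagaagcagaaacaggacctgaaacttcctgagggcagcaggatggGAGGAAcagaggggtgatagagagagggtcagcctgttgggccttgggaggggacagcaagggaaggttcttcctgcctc
C1qc, chr4:136892865-136893164, minus strand: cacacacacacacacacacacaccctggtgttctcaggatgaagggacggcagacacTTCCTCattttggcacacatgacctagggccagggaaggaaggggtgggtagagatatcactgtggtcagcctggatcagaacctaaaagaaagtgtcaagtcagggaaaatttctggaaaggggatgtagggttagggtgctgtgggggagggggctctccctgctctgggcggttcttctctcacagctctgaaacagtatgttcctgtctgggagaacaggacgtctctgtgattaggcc
P2ry12, chr3:59262936-59263235, minus strand: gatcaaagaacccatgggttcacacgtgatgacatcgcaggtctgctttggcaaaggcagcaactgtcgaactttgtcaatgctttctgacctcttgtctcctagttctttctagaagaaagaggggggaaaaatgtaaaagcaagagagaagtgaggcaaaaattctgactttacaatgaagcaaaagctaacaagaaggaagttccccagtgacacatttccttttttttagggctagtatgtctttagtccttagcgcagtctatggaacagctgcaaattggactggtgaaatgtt
The match in C1qb began 30 bases before the start site and the one in C1qc 193 bases before it. The P2ry12 window held no match, which says only that these letters are absent from this window.

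Totals ran from 20230085 to 33191857 counts per library, with a median of 23807060.5, so that the least abundant member, Trem2, still had 187 to 498 counts. Within groups, all 117 pairs of libraries differed by more than sampling noise, with a chi-square per degree of freedom of 3.18 to 79.4, and each library was counted as 1 sample. In 4 libraries, wildtype vehicle 2 and vorinostat 6, 7 and 9, mitochondrially encoded genes took 6.39% to 7.48% of the counts, against 2.84% to 4.11% in the other 24. The summed hemoglobin level was also higher in these 4, at 75.9 to 135 CPM (counts relative to the scaled library total) against 16.9 to 52.1 CPM. For most genes named in the comparison of vorinostat with transgenic vehicle, the value without these libraries is given too. Wfs1 and Fibcd1, known markers of CA1 pyramidal neurons, were present in every library, at 153 to 381 CPM and 112 to 423 CPM. Microglial RNA was present in every library as well: the 28 further microglial genes of a separate list summed to 656 to 853 CPM, and 0 of them were at 0. Of 13 genes of blood leukocytes, 1 (Ptprc, which microglia also express) passed the filter; Ccr2 reached at most 0.5997 CPM and S100a8 at most 0.257 CPM. Genes of border-associated macrophages, which also express several of the members, summed to 18.9 to 43.6 CPM.

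The first question was how abundant the members were, and it concerns levels per kilobase of exon (CPM per kb) over all 28 libraries. Ctss was at 32.6 ± 6.57 CPM per kb (SD, n = 28) and C1qa at 31.4 ± 4.95. C1qb was at 18.5 ± 2.90, Csf1r at 17.9 ± 1.60, P2ry12 at 12.9 ± 3.17 and Cx3cr1 at 12.4 ± 1.30. Tmem119 was at 9.37 ± 1.23, C1qc at 9.09 ± 1.44 and Trem2 at 2.24 ± 0.311. The steps from C1qa to C1qb, from Cx3cr1 to Tmem119 and from C1qc to Trem2 held in 28 of 28 libraries. The neighbours Ctss and C1qa (18 of 28 libraries in that order), C1qb and Csf1r (14 of 28), and P2ry12 and Cx3cr1 (13 of 28) did not differ beyond their spread. The length used matters for 3 of the genes: with the principal transcript in place of all exons, Csf1r was at 21.99, C1qc at 14.6 and Trem2 at 10.2 CPM per kb, and Tmem119 rather than Trem2 was last. The levels by group that follow are CPM, not divided by length, and are compared only within a gene.

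Cx3cr1, the fractalkine receptor gene, and Tmem119 were nearly level across the groups. Cx3cr1 had a lowest, median and highest level of 44.5, 56.8 and 66.3 CPM in wildtype vehicle (n = 10), 50.8, 54.8 and 63.0 CPM in transgenic vehicle (n = 9), and 45.4, 56.2 and 63.4 CPM with vorinostat (n = 9). The groups overlapped over nearly their whole range, and the means were 55.8 ± 7.87, 55.5 ± 3.90 and 55.7 ± 5.60 CPM (SD). Tmem119, a microglia-enriched membrane protein, had a lowest, median and highest level of 18.8, 21.6 and 28.5 CPM in wildtype vehicle, 17.7, 21.3 and 28.3 CPM in transgenic vehicle, and 18.1, 20.6 and 26.3 CPM with vorinostat. Its groups overlapped as well, with means of 22.2 ± 3.10, 21.6 ± 3.05 and 21.1 ± 2.51 CPM.

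P2ry12, the ADP receptor that steers microglial processes, was the member with the widest spread. Its lowest, median and highest levels were 23.8, 30.7 and 46.7 CPM in wildtype vehicle (n = 10), 26.9, 29.7 and 33.5 CPM in transgenic vehicle (n = 9), and 25.8, 31.6 and 55.8 CPM with vorinostat (n = 9). The medians were close, and the vorinostat group differed by its upper end: 3 of its 9 libraries were at 43.8, 55.1 and 55.8 CPM, above every vehicle library other than wildtype vehicle 2 (46.7 CPM). These 3 and wildtype vehicle 2 were the 4 libraries with a high mitochondrial share, and all 4 lay above all of the other 24, which ran from 23.8 to 37.5 CPM. The 6 other vorinostat libraries had a mean of 30.5 ± 2.48 CPM. Levels of Med12l, the overlapping gene, were 37.4 to 40.4 CPM in those 4 libraries and 36.1 to 59.8 CPM in the others.

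Csf1r, the receptor for CSF1 and interleukin 34 (chromosome 18, 61100598 to 61132149, plus strand), was the most even member. Its lowest, median and highest levels were 87.8, 104 and 119 CPM in wildtype vehicle, 96.3, 107 and 118 CPM in transgenic vehicle, and 92.6, 103 and 117 CPM with vorinostat. The means, 103 ± 11.3, 104 ± 7.43 and 103 ± 9.29 CPM, lay well within the spread of each group. Unlike P2ry12, Csf1r was above the median of the other 24 libraries in only 1 of the 4 libraries with a high mitochondrial share. Levels of Hmgxb3, whose exons overlap those of Csf1r, were 31.3 to 42.8 CPM in those 4 libraries and 48.3 to 57.8 CPM in the others. Whether the overlap had a part in the counts of Csf1r was not tested.

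The chains of C1q were close in all groups. C1qa had a lowest, median and highest level of 26.4, 31.5 and 41.9 CPM in wildtype vehicle, 28.9, 30.4 and 44.2 CPM in transgenic vehicle, and 25.1, 31.1 and 41.7 CPM with vorinostat. C1qb ran over 15.2, 20.2 and 27.3 CPM in wildtype vehicle, 16.9, 18.9 and 25.5 CPM in transgenic vehicle, and 15.6, 19.9 and 26.8 CPM with vorinostat. C1qc ran over 13.8, 17.1 and 21.7 CPM in wildtype vehicle, 14.6, 17.3 and 20.002 CPM in transgenic vehicle, and 13.8, 17.7 and 25.1 CPM with vorinostat. The groups overlapped for all 3 chains, and the summed level of the chains was 70.4 ± 10.1, 68.6 ± 8.67 and 71.9 ± 13.8 CPM in that order of groups. In the 4 libraries with a high mitochondrial share the sum was 78.2 to 92.7 CPM, against 55.0 to 90.9 CPM in the other 24.

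Trem2 had a lowest, median and highest level of 8.81, 11.1 and 14.8 CPM in wildtype vehicle, 9.94, 10.3 and 13.2 CPM in transgenic vehicle, and 7.89, 10.9 and 14.1 CPM with vorinostat, and the groups overlapped. Ctss had levels of 37.0, 41.0 and 65.4 CPM in wildtype vehicle, 37.3, 40.6 and 50.9 CPM in transgenic vehicle, and 37.4, 41.3 and 68.5 CPM with vorinostat. As for P2ry12, the medians of Ctss were close and the upper ends differed: 3 of the 4 libraries with a high mitochondrial share lay above all of the other 24, whose highest level was 52.0 CPM. For Trem2, all 4 were above the median of the others (10.6 CPM) and 0 of them above all others.

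**Figure D1:**
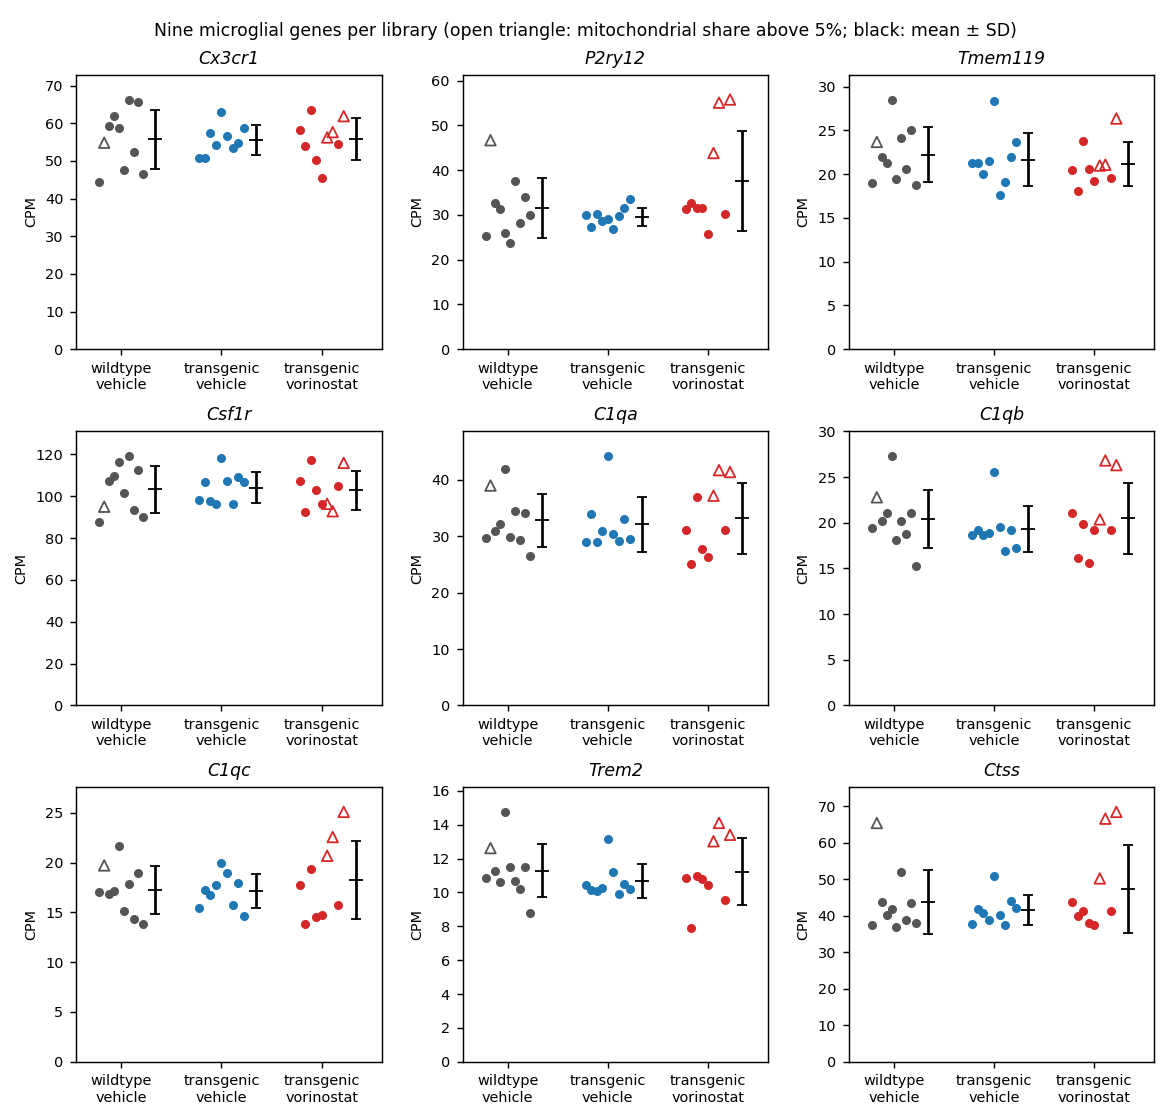
CPM of each member (vertical axis, from 0) in each of 28 libraries, by group; filled points are libraries, open triangles the 4 libraries with a mitochondrial share above 5%, and black bars the mean and SD. P2ry12 in the triangles is 43.8 to 55.8 CPM, above all filled points, while the triangles of Csf1r lie among the filled points.

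The comparison of CamkIIδC transgenic vehicle with wildtype vehicle asks whether the transgene came with a change in these genes in CA1. None of the members passed the test: 0 of 9 had an adjusted p below 0.05 by edgeR's quasi-likelihood test with Benjamini-Hochberg adjustment, where 0% of the 17009 genes tested were called. At an unadjusted p below 0.05 there were 0 members and 227 genes (1.33%) by edgeR, 205 genes by DESeq2 and 221 by limma voom, and both of those tools called 0 genes after adjustment. The log2 fold changes were negative for 8 members and positive for 1, and ran from -0.089 for P2ry12 (SE 0.127, 95% interval -0.35 to 0.17) to 0.0099 for Csf1r (SE 0.0609, interval -0.11 to 0.13). Their median was -0.040, beside 0.00013 over all genes. The 95% intervals of the C1q chains were -0.23 to 0.17 for C1qa, -0.28 to 0.12 for C1qb and -0.21 to 0.19 for C1qc. Each held both negative and positive values, and how small a difference these libraries could detect was not tested. The median was -0.099 without transgenic vehicle 5 and 0.0022 without wildtype vehicle 5, libraries with high levels of several members. The female-specific RNA Xist exceeded 10 CPM in 6 of the 10 wildtype libraries, in 3 of the 9 transgenic libraries given vehicle and in 5 of the 9 given vorinostat. With this as a covariate the median was -0.067 and P2ry12 was at -0.16. Without the 4 libraries with a high mitochondrial share, the median was -0.0074 and P2ry12 was at -0.0084. Leaving out only wildtype vehicle 2, which is among them, put P2ry12 at -0.010. In bulk tissue, fewer microglia and less RNA per microglial cell cannot be told apart, and nothing in the labels ties 1 library to 1 mouse, so the p-values measure only the spread among the libraries.

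Vorinostat was next set against vehicle among the transgenic groups, to see what the drug changed on this background. Again 0 of 9 members passed, with 0% of the genes tested called by edgeR. At an unadjusted p below 0.05 there were 1 member, P2ry12, and 2450 genes (14.4%) by edgeR, 2517 genes by DESeq2 and 2546 by voom; after adjustment DESeq2 called 1 gene, Igfbp4, which is no member and is named after its value was seen, and voom 0. P2ry12 had a mean of 37.5 ± 11.2 CPM with vorinostat (n = 9) and 29.6 ± 2.02 CPM with vehicle (n = 9), with a log2 fold change of 0.34 (SE 0.130, interval 0.074 to 0.61) and an adjusted p of 0.344 by edgeR. Ctss had 47.4 ± 12.01 against 41.5 ± 4.15 CPM, with a log2 fold change of 0.19 (SE 0.116, interval -0.046 to 0.43) and an adjusted p of 0.392. The other 7 members had values from -0.035 (Tmem119) to 0.087 (C1qc), and 7 of the 9 members were positive. The median over members was 0.073, beside 0.0033 over all genes.

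Vorinostat 6, 7 and 9 are 3 of the 4 libraries with a high mitochondrial share. Without those 4 libraries the log2 fold change of P2ry12 was 0.039 (SE 0.0769) and that of Ctss -0.049 (SE 0.0679), the median over members was -0.066, and 0 members passed. C1qa, C1qb, C1qc and Trem2 changed sign too, to -0.12, -0.066, -0.11 and -0.082. Whether the mitochondrial share, the hemoglobin level or another property of these libraries had a part in the levels of P2ry12 and Ctss was not tested.

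Against wildtype vehicle, the vorinostat group asks whether treated transgenic mice differed from untreated controls. Here too 0 of 9 members passed by edgeR, where 0% of all genes were called and 2142 (12.6%) had an unadjusted p below 0.05 (2206 by DESeq2 and 2263 by voom, each with 0 called). There were 5 positive and 4 negative members with a median of 0.0033, beside 0.0064 over all genes. P2ry12 had the largest value, 0.25 (SE 0.127, interval -0.0081 to 0.51, adjusted p 0.404 by edgeR), and 0.031 without the 4 libraries. Without them the median over members was -0.092. The comparisons share control groups, so their values are not independent of each other.

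**Figure D2:**
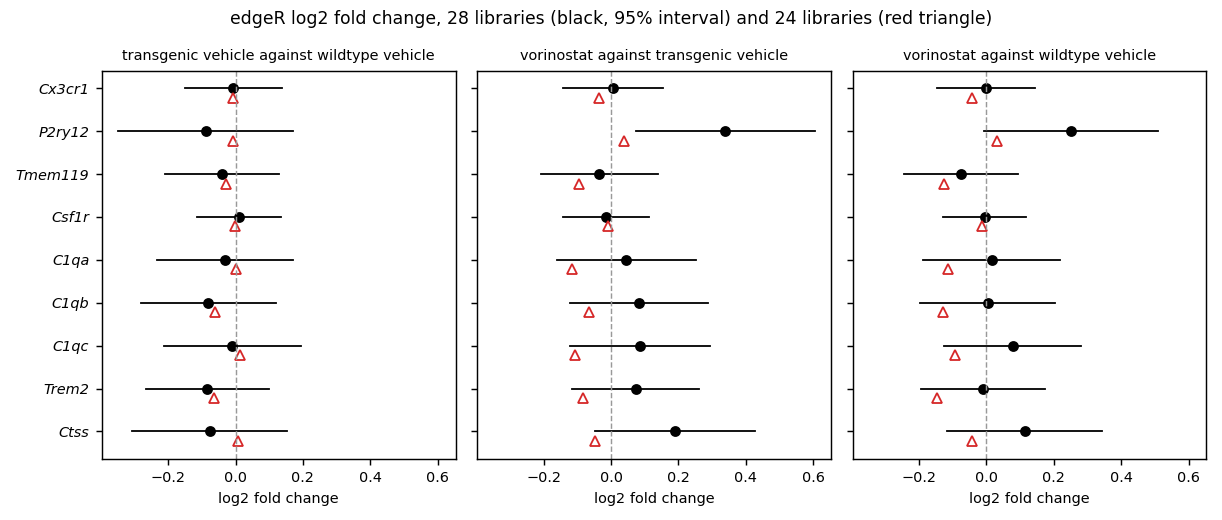
log2 fold change of each member (horizontal axis) in the 3 comparisons, from edgeR; black points and lines are estimates and 95% intervals over 28 libraries, and red triangles are estimates over the 24 libraries with a mitochondrial share below 5%. The value of P2ry12 with vorinostat against transgenic vehicle is 0.34 over 28 libraries and 0.039 over 24.

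**Figure D3:**
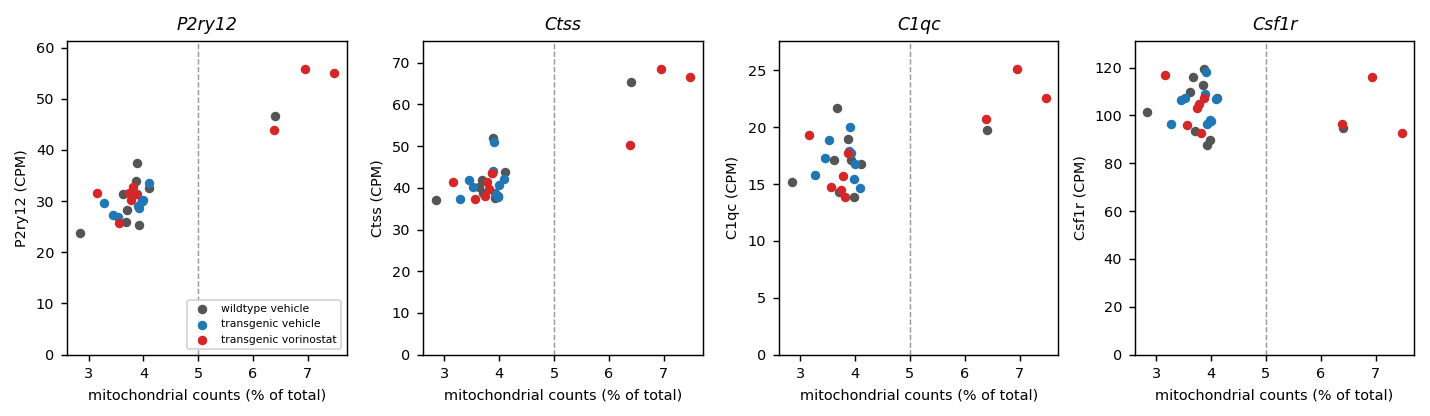
CPM of P2ry12, Ctss, C1qc and Csf1r (vertical axes, from 0) against the percent of counts from mitochondrially encoded genes (horizontal axis) in each library, coloured by group; the dashed line marks 5%. The 4 libraries right of the line have P2ry12 of 43.8 to 55.8 CPM and Csf1r of 92.8 to 116 CPM.

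The C1q chains kept a nearly fixed ratio to each other while their sum varied between libraries from 55.0 to 92.7 CPM. Per kilobase of exon, C1qa made up 53.3 ± 1.49% of the summed level of the chains, C1qb 31.3 ± 1.41% and C1qc 15.4 ± 0.803% (SD, n = 28). By group the share of C1qa was 53.2 ± 1.097% in wildtype vehicle, 53.6 ± 1.51% in transgenic vehicle and 53.0 ± 1.91% with vorinostat, differences smaller than the spread in any group. With principal transcript lengths the shares were 48.7%, 28.7% and 22.6%, so their size depends on the length used.

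**Figure D4:**
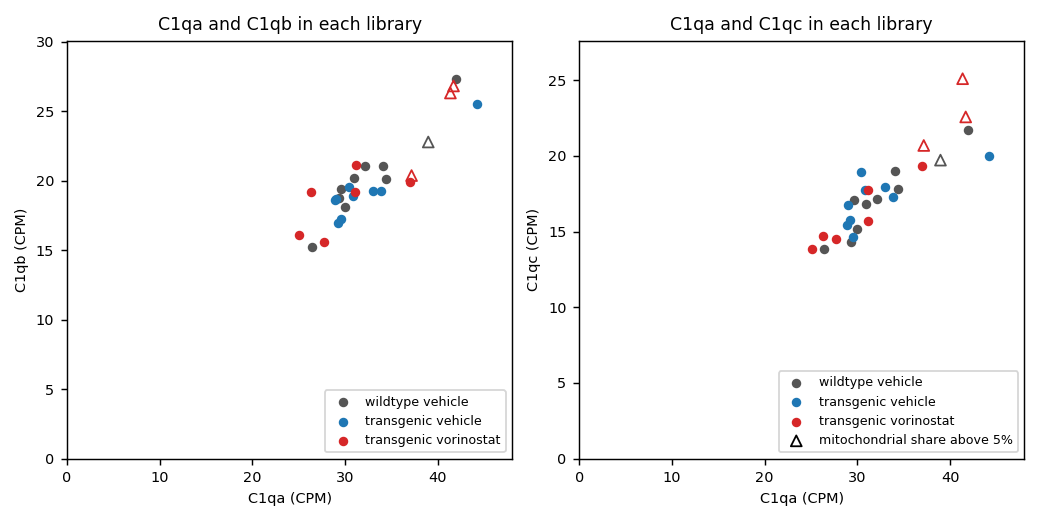
CPM of C1qb (left) and C1qc (right) against C1qa in each of 28 libraries, both axes from 0, coloured by group, with open triangles for the 4 libraries with a mitochondrial share above 5%. The points lie near a line from 25.1 to 44.2 CPM of C1qa in all groups.

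Within groups, the members were compared across libraries as log2 CPM with each group's mean removed, for 36 pairs, with permutation p-values within groups (100000 resamples, smallest possible p 1e-05) adjusted over the 36. C1qa and C1qc had Pearson's r of 0.906 and Spearman's rho of 0.933, C1qa and C1qb 0.895 and 0.871, and C1qb and C1qc 0.889 and 0.898 (n = 28 libraries). The permutation p was the smallest possible for each r and rho, with an adjusted p of 4e-05 for each r and 6e-05 for each rho. Leaving out the 2 libraries farthest from the median of the first gene gave r of 0.853 to 0.917, and the 24 libraries with a low mitochondrial share gave 0.854 to 0.861. Trem2 followed the chains, with r of 0.845 to 0.856 over 28 libraries and 0.751 to 0.811 over 24. Genes outside the members followed Trem2 more closely. The 5 nearest had r of 0.886 to 0.919 over 28 libraries and 0.832 to 0.902 over 24, with Cst3 the nearest.

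P2ry12 did not follow the C1q chains and Trem2 once the 4 libraries were set aside. Over the 24 others its r with C1qa was 0.039, with C1qb -0.13, with C1qc -0.0035 and with Trem2 -0.28, and none of these passed (adjusted permutation p of 0.889, 0.656, 0.989 and 0.291). Over 28 libraries the same pairs had r of 0.42 to 0.58, so that relation rests on the 4 libraries. The r of P2ry12 with Ctss was 0.889 over 28 libraries and 0.57 over the 24, and that with Cx3cr1 was 0.48 and 0.67. Csf1r moved the other way: its median r with the other members was 0.46 over 28 libraries and 0.75 over 24. In all, 31 of 36 pairs passed over 28 libraries, 28 over the 24 and 24 without the 2 farthest libraries.

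**Figure D5:**
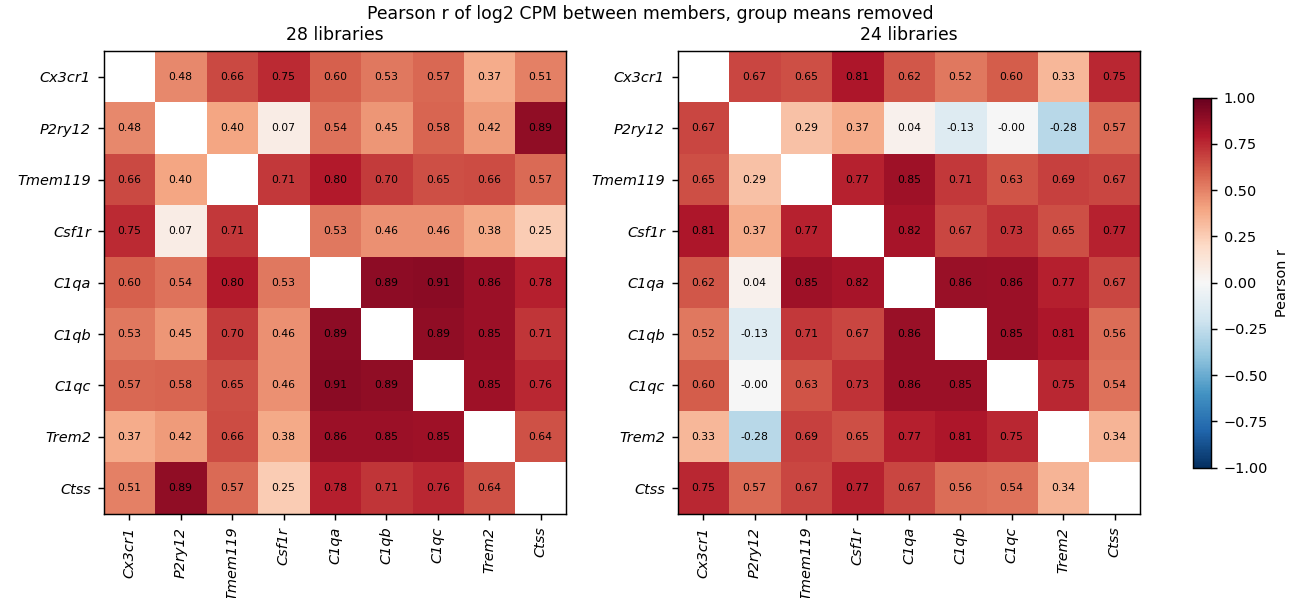
Pearson's r (colour and printed value) between members across libraries, as log2 CPM with group means removed, over 28 libraries (left) and the 24 with a mitochondrial share below 5% (right). The C1q block stays at 0.85 or above in both. The row of P2ry12 runs from 0.074 to 0.889 on the left and from -0.28 to 0.67 on the right.

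The genes most like the members were found by r with the mean of the 9 standardised members over 28 libraries, with the value over 24 libraries beside it. They were Rlbp1 (0.909 and 0.870), Asrgl1 (0.898 and 0.859), Rplp0 (0.890 and 0.852), Cst3 (0.886 and 0.830), Chil1 (0.885 and 0.802), Tyrobp (0.876 and 0.801), Ftsj1 (0.872 and 0.861), Hadha (0.869 and 0.767), Drap1 (0.868 and 0.832) and Siglech (0.868 and 0.806). Tyrobp encodes the adaptor of TREM2, Siglech a microglial lectin, Cst3 the protease inhibitor cystatin C, and Rplp0 a ribosomal protein; Rlbp1 encodes a retinaldehyde-binding protein. Of all 17000 other genes tested, 11.95% had r above 0.5 over 28 libraries and 9.05% over 24, so many genes share this pattern. Of 28 other microglial genes, 17 were above 0.5 (median 0.62), beside 4 of 10 astrocyte genes and 2 of 10 oligodendrocyte genes. The counts were 0 of 10 endothelial genes, 0 of 8 CA1 neuron genes and 0 of 8 genes of border-associated macrophages. Over the 24 libraries the counts were 18, 3, 0, 0, 2 and 0 in the same order. The genes most like the mean of the C1q chains were Cst3 (0.923), Rlbp1 (0.922), Cmtm5 (0.918), Rplp0 (0.909) and Rps14 (0.898). These values describe a likeness across libraries that also differ in depth and mitochondrial share. Set against the mean of the other 8 members, C1qa ranked 1 among 17001 genes, C1qc 3 and C1qb 17, while P2ry12 ranked 1159 and Csf1r 2021. For each C1q chain that mean holds the other chains, so its high rank follows in part from the choice of members. Over the 24 libraries P2ry12 ranked 5205 and Csf1r 2.

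The partners of the members were read from lists of related genes, and 0 genes of any list passed edgeR's test in any comparison. Of the 28 other microglial genes, 12 were positive and 16 negative in transgenic against wildtype vehicle, with a median log2 fold change of -0.019 (15, 13 and 0.0083 without the 4 libraries). Ly86, a partner of an innate immune receptor, had 4.88 ± 0.568 CPM against 5.68 ± 1.08 CPM (log2 fold change -0.22, adjusted p 0.9998 by edgeR), and Aif1, the gene of IBA1, 13.2 ± 1.62 against 14.4 ± 1.55 CPM (-0.13). With vorinostat against transgenic vehicle, 20 were positive and 8 negative, with a median of 0.079; without the 4 libraries 8 were positive and 20 negative, with a median of -0.027. Gpr34, a microglial lysophospholipid receptor, had 13.1 ± 4.16 against 9.85 ± 1.20 CPM (log2 fold change 0.41, adjusted p 0.344 by edgeR). Fcrls had 5.55 ± 1.31 against 4.41 ± 0.803 CPM (0.33) and Adgre1, the gene of F4/80, 6.94 ± 1.21 against 5.88 ± 0.366 CPM (0.24). Without the 4 libraries these 3 values were 0.094, 0.18 and 0.099. Against wildtype vehicle 20 were positive and 8 negative, with a median of 0.048, and without the 4 libraries 10 and 18, with a median of -0.036.

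Of 13 ligands and partners of the members, 12 were tested. Cx3cl1, fractalkine, had 595 ± 126 CPM with vorinostat and 681 ± 20.9 CPM with transgenic vehicle (log2 fold change -0.20, adjusted p 0.344 by edgeR), and Csf1, a ligand of the CSF1 receptor, had 20.3 ± 3.01 and 23.0 ± 2.43 CPM (-0.18, adjusted p 0.345). In the 4 libraries with a high mitochondrial share Cx3cl1 was at 404 to 504 CPM, below all of the others (615 to 735 CPM). Without those libraries its log2 fold change was -0.018 and that of Csf1 -0.072. Adam17, a protease that sheds several of these proteins, had 26.98 ± 2.48 against 25.1 ± 0.986 CPM (0.10), and 0.029 without them.

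Of the 14 complement cascade genes found in the data, 9 were tested. C1s1, which encodes a protease of the C1 complex, was the only one with an unadjusted edgeR p below 0.05 in transgenic against wildtype vehicle. It had 0.346 ± 0.0569 against 0.471 ± 0.133 CPM (log2 fold change -0.45, adjusted p 0.9998 by edgeR). C2 had 1.40 ± 0.217 against 1.63 ± 0.279 CPM (-0.21) and C4b, the next component after C1, 52.6 ± 9.83 against 47.5 ± 9.06 CPM (0.15). With vorinostat against transgenic vehicle, C4b had 43.1 ± 5.91 against 52.6 ± 9.83 CPM (log2 fold change -0.29, adjusted p 0.344 by edgeR). C3, the central component, was scarce, with 0.389 ± 0.229 against 0.828 ± 0.639 CPM (-1.096, adjusted p 0.344). Without the 4 libraries these were -0.22 and -0.996. Of 23 complement receptors and regulators 20 were tested. Cd46 had a log2 fold change of 0.25 (13.2 ± 2.37 against 11.02 ± 0.992 CPM) and Cr1l of 0.13 (19.0 ± 1.37 against 17.3 ± 2.07 CPM) with the drug, each with an adjusted p of 0.344 or 0.345 by edgeR. Without the 4 libraries these were 0.11 and 0.091.

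Genes known to be induced in reactive microglia were mostly negative with vorinostat against transgenic vehicle. They were closer to evenly divided in the other comparisons, and 0 passed. In bulk tissue, the levels of these genes cannot be assigned to microglia alone. Of 25 tested among 32, 14 were positive and 11 negative in transgenic against wildtype vehicle (median 0.017), 6 positive and 19 negative with vorinostat against transgenic vehicle (median -0.042), and 13 positive and 12 negative with vorinostat against wildtype vehicle (median 0.0080). Cst7, Clec7a, Tnf, Ccl2, Ccl3, Ccl4 and Nos2 did not reach the count filter over all 28 libraries. Without the 4 libraries 26 genes of this list were tested. In the same order of comparisons, 16, 9 and 12 were positive and 10, 17 and 14 negative (medians 0.052, -0.095 and -0.0044). Cd86 had 1.59 ± 0.468 CPM with vorinostat against 1.23 ± 0.216 CPM with transgenic vehicle (log2 fold change 0.37, adjusted p 0.344 by edgeR), and 0.19 without the 4 libraries. Axl went the other way in that comparison, with 58.2 ± 6.50 against 63.9 ± 4.43 CPM (-0.14, adjusted p 0.344 by edgeR). Of 14 cathepsins and cystatins, 8 were positive and 6 negative in the same comparison (median 0.083). Without the 4 libraries 1 was positive and 13 were negative (median -0.039). Ctsh had 4.39 ± 0.821 against 3.79 ± 0.631 CPM (0.21, adjusted p 0.350 by edgeR), and 0.11 without the 4 libraries. Ctsf had 58.9 ± 5.67 against 62.9 ± 3.58 CPM (-0.095, adjusted p 0.362 by edgeR). Mrc1, a gene of border-associated macrophages, had 3.08 ± 1.22 against 2.43 ± 0.409 CPM (0.34, adjusted p 0.365 by edgeR, and 0.39 without the 4 libraries), with a highest library of 6.16 CPM.

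The authors also deposited adjusted expression values from a mixed model and a table of coexpression modules. In the authors' deposited table of adjusted values, on its own log scale, P2ry12 had a mean of 6.07 ± 0.195 (SD) over 10 wildtype vehicle libraries, 5.998 ± 0.112 over 9 transgenic vehicle and 6.24 ± 0.172 over 9 vorinostat libraries, a difference of 0.24 between the last 2 groups. Ctss was at 6.68 ± 0.183, 6.64 ± 0.1098 and 6.76 ± 0.151 in that order. In the authors' deposited table of 14 modules, named by colour, C1qa, C1qb, C1qc and Trem2 were all placed in yellow, which held 1116 (6.20%) of 18014 genes and 7 of the 28 other microglial genes. Purple, where P2ry12 was placed, also held 7 of those 28, among 2666 genes (14.8%), and black, where Ctss was placed, held 4. Membership scores in the authors' deposited table were 0.743 (C1qa) to 0.868 (Trem2) for the members in yellow, 0.893 for P2ry12 and 0.750 for Ctss. Cx3cr1, Tmem119 and Csf1r were placed in brown with lower scores of 0.352, 0.462 and 0.520, with a deposited p of 0.0567 for Cx3cr1 in the authors' deposited table.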

How the data were processed

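Each library has a deposited table of raw read counts by gene. The tools named in the submitters' processing notes are STAR 2.5.2b, featureCounts, Subread 1.5.1 and FastQC 0.11.5, with the build mm10; neither annotation release nor strand setting is given in the sources used here. Reads were 50 bp single-end from a TruSeq RNA v2 kit, per the labels' protocols. The authors also deposited adjusted values on a log scale read here as log2 (base and model terms not given), and a module table whose membership score comes with a deposited p-value.

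Counts were tested with edgeR 4.0.16 (R 4.3.3): filterByExpr by group (minimum count 10, minimum total 15), TMM scaling, 1 robust quasi-likelihood fit of all 28 libraries, and Benjamini-Hochberg adjustment over 17009 genes at 0.05. DESeq2 1.42.0 and limma 3.58.1 (voom) served as alternatives, with other scalings, filters, covariates, replicate blocks and left-out libraries. log2 CPM used a prior count of 2. The fit was tested on simulated data. Symbols and coordinates came from the GENCODE annotation of GRCm38; 48349 identifiers (99.3%) had a symbol. Members, lists, tests and the 5% mitochondrial limit were chosen with earlier results of these data known. From each list other than the members, at most the 3 genes with the smallest unadjusted p in a comparison were named.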

Additional observations from a re-analysis of the deposited data

Results flagged for a closer look

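Within groups of 9 or 10 libraries, the gap between the highest or lowest library and its nearest neighbour was set against the group's range (Dixon's 95% limits). In 27 groups of member levels, 5 values from 2 libraries lay past the limit. Chance gives about 1 in 20 groups where groups are independent, which levels of these genes in the same libraries are not. Transgenic vehicle 5 was the highest of its group at 44.2 CPM for C1qa (next 33.8 CPM), 25.5 CPM for C1qb (next 19.5 CPM), 13.2 CPM for Trem2 (next 11.2 CPM) and 50.9 CPM for Ctss (next 44.1 CPM). Its mitochondrial share was 3.91%, among the 24 libraries of low share. Wildtype vehicle 2 was the highest of its group at 65.4 CPM for Ctss (next 52.0 CPM), and it is 1 of the 4 libraries with a high mitochondrial share.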

How the results depend on the processing

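Most fold changes of the members were smaller than their errors, and many changed sign with the processing. With vorinostat, P2ry12 was at 0.34 (SE 0.130, interval 0.074 to 0.61) against transgenic vehicle and 0.25 (SE 0.127) against wildtype vehicle. Ctss was at 0.19 (SE 0.116) and 0.11 (SE 0.113). P2ry12 against transgenic vehicle changed sign in 0 of 28 runs with 1 library left out and 0 of 15 other settings. Its value was 0.039 without the 4 libraries of high mitochondrial share. In any comparison, 0 of 9 members passed the threshold under any alternative run (0 of 756 values with 1 library left out and 0 of 405 under the other settings, 27 of which come from the authors' table and have no test). The cause of the changes of sign was not tested. The count of genes called with vorinostat against transgenic vehicle was 1 with DESeq2 and 0 to 1 with 1 library left out (1 without vorinostat 3), and the gene was Igfbp4 in both cases. Against wildtype vehicle it was 0 to 3 with 1 library left out (3 without wildtype vehicle 2, the red cell genes Alas2, Hbb-bt and Hbb-bs, of which the last 2 are near-identical copies with uncertain counts, and 1 without wildtype vehicle 5, Adm). Numbers shared in the titles or library codes gave no clear pairing of the libraries. Correlated deviations above 0.1 were found in 7 of 27 and 7 of 26 same-numbered pairs, beside 68 of 234 and 68 of 235 differently numbered pairs. The median r was 0.060 and 0.046 for same-numbered pairs, and -0.014 and -0.010 for the others. With the title number as a replicate block 1 gene, Zfp26, was called with vorinostat against wildtype vehicle, and 0 members were. These genes were named after their values were seen. With the principal transcript length, chosen after seeing the data, the level per kilobase was 21.99 for Csf1r, 14.6 for C1qc and 10.2 for Trem2, because the length is shorter.

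Log2 fold changes of opposite sign to the reported ones follow by setting, each with an adjusted p above 0.05 where the setting gives one. With limma voom the reversed values were Cx3cr1 0.0040 in transgenic against wildtype vehicle, and Cx3cr1 0.0055 and C1qb -0.011 with vorinostat against wildtype vehicle. With the other microglial genes as a covariate the reversed values were Cx3cr1 0.018, C1qa 0.0057 and C1qc 0.034 in transgenic against wildtype vehicle, and Cx3cr1 -0.063, C1qa -0.093, C1qb -0.044, C1qc -0.062 and Trem2 -0.039 with vorinostat against transgenic vehicle, and C1qa -0.087, C1qb -0.088, C1qc -0.028 and Ctss -0.0076 with vorinostat against wildtype vehicle. With the title number as a block the reversed values were Csf1r -0.0077 in transgenic against wildtype vehicle, and C1qa -0.0098 and C1qb -0.035 with vorinostat against wildtype vehicle. Without the 4 libraries of high mitochondrial share the reversed values were Csf1r -0.0016, C1qa 0.00045, C1qc 0.014 and Ctss 0.0058 in transgenic against wildtype vehicle, and Cx3cr1 -0.036, C1qa -0.12, C1qb -0.066, C1qc -0.11, Trem2 -0.082 and Ctss -0.049 with vorinostat against transgenic vehicle, and C1qa -0.11, C1qb -0.13, C1qc -0.092 and Ctss -0.043 with vorinostat against wildtype vehicle. In the authors' deposited table the reversed values were Csf1r -0.062 in transgenic against wildtype vehicle, and Tmem119 0.033 and Csf1r 0.044 with vorinostat against transgenic vehicle, and C1qa -0.036 and C1qb -0.0025 with vorinostat against wildtype vehicle. With the mitochondrial share as a covariate the reversed values were C1qc 0.015 in transgenic against wildtype vehicle, and Cx3cr1 -0.021, Csf1r 0.0013, C1qa -0.058, C1qb -0.019, C1qc -0.035, Trem2 -0.019 and Ctss -0.013 with vorinostat against transgenic vehicle, and Csf1r 0.0078, C1qa -0.067, C1qb -0.080, C1qc -0.020 and Ctss -0.038 with vorinostat against wildtype vehicle. With hemoglobin as a covariate the reversed values were Cx3cr1 -0.048, C1qa -0.13, C1qb -0.054, C1qc -0.10, Trem2 -0.069 and Ctss -0.077 with vorinostat against transgenic vehicle, and P2ry12 -0.071, C1qa -0.20, C1qb -0.16, C1qc -0.15 and Ctss -0.19 with vorinostat against wildtype vehicle. With the library code number as a block the reversed values were Csf1r 0.0061 with vorinostat against transgenic vehicle, and Cx3cr1 0.017 and Csf1r 0.0084 with vorinostat against wildtype vehicle. With library totals only the reversed values were Cx3cr1 0.016, Csf1r 0.0099 and Trem2 0.0060 with vorinostat against wildtype vehicle. With a CPM of at least 1 in 9 libraries the reversed values were Cx3cr1 0.0019 with vorinostat against wildtype vehicle. C1qb with vorinostat against wildtype vehicle was -0.00069 with DESeq2 size factors in edgeR, -0.00014 with DESeq2, -0.00090 with no filter and -0.0048 with Xist as a covariate.

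With 1 library left out, the values that changed sign ran over these ranges: in transgenic against wildtype vehicle, Cx3cr1 -0.038 to 0.024, Tmem119 -0.099 to 0.0071, Csf1r -0.017 to 0.035, C1qa -0.10 to 0.016, C1qc -0.042 to 0.034 and Ctss -0.12 to 0.0041. With vorinostat against transgenic vehicle, Cx3cr1 -0.024 to 0.035, Tmem119 -0.081 to 0.021, Csf1r -0.044 to 0.0080 and C1qa -0.0045 to 0.11. With vorinostat against wildtype vehicle, Cx3cr1 -0.033 to 0.029, Csf1r -0.035 to 0.019, C1qa -0.035 to 0.062, C1qb -0.056 to 0.061 and Trem2 -0.061 to 0.042. The lowest count of a member in a library was 187 (Trem2), and what counting error adds to the spread between libraries was not tested.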
